A study of Arabidopsis thaliana with 4 samples.

Results

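Salicylic acid defence was read in Arabidopsis thaliana leaves through 4 marker genes, each measured by 1 probe set of the Affymetrix ATH1 array (a probe set is a group of short probes that together read 1 transcript). The genes were PAD4 (AT3G52430, probe set 252060_at), PR1 (AT2G14610, 266385_at), PR2 (AT3G57260, 251625_at) and PR5 (AT1G75040, 259925_at). They were chosen by name and probe set identifier, as known markers of the pathway, by a rule that uses no measured value, and make up 4 of the 22810 probe sets in the table. The antisense plants were Col-0 carrying a construct in antisense orientation to AOX1a (At3g22370) driven by the 35S promoter of cauliflower mosaic virus, which is active in nearly all plant tissues. Both antisense arrays bear the same line name, AS12, so an effect of the construct and a peculiarity of that line cannot be told apart. The wild-type labels name no accession. Both genotypes were grown in unfertilized potting mix at 23 °C with a light period of 14 h and a light level of 350 µmol photons per square metre per second, with no pathogen or hormone treatment in the labels. Leaves were taken at 21 days. Each array held RNA pooled from several plants, 9 and 8 for antisense 1 and 2 and 7 and 9 for wild type 1 and 2.

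Salicylic acid is the hormone that plants build up after they recognise biotrophic pathogens. PAD4, a lipase-like protein, works with EDS1 ahead of salicylic acid accumulation, and the hormone then acts through the coactivator NPR1 and TGA transcription factors to switch on pathogenesis-related (PR) genes. PR1, PR2 and PR5 encode secreted proteins of 3 unrelated families and are the usual transcript readouts of this pathway in leaves. Salicylic acid is also known as an inducer of alternative oxidase, the mitochondrial enzyme that AOX1a encodes and that takes electrons from ubiquinol past the cytochrome pathway to oxygen.

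In the RefSeq gene table (TAIR10.1) all 4 loci are protein-coding. PR5 lies on chromosome 1, PR1 on chromosome 2, and PR2 (listed there as BGL2) and PAD4 on chromosome 3. Each of the PR genes has a relative as a neighbouring coding gene. These are PRB1, the basic PR1-type protein, beside PR1, BG1, another beta-1,3-glucanase, beside PR2, and TLP-3, another thaumatin-like protein, beside PR5. The coding neighbours of PAD4 are OEP7 and AT3G52440. The table does not pair probe sets with genes, so whether a probe set also reads a neighbouring relative was not tested.

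None of the 4 markers passed limma's test of a difference between antisense and wild-type leaves. The mean of PAD4, PR2 and PR5 was higher in the antisense line and that of PR1 lower, by log2 differences between -0.21 and 0.50. One array, antisense 1, was at the top or the bottom for each of the 4 genes. The same held for 53.4% of all 22746 probe sets that are not array controls, little above the share of an array picked at random. Without antisense 1, the sign of the PAD4 and PR1 differences turned. Since leaves were measured whole, fewer cells making a transcript and less transcript per cell cannot be told apart.

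PAD4, the regulator that acts ahead of salicylic acid accumulation, had a signal of 119.1 and 47.9 in antisense leaves (arrays 1 and 2) and 52.5 and 58.4 in wild-type leaves. The genotypes overlapped, because antisense 1 was the highest array and antisense 2 the lowest. The antisense arrays were 2.49-fold apart and the wild-type arrays 1.11-fold. Of the 22746 probe sets that are not array controls, 87.6% had a smaller gap between the antisense arrays than PAD4 on the log2 scale, and 27.2% had a smaller gap between the wild-type arrays. The antisense 1 signal of PAD4 was 2.25 times the mean of the other 3 arrays, and 4.20% of all these probe sets had a ratio at least that high. Without antisense 1, the remaining antisense array lay below both wild-type arrays, and the log2 difference was -0.21 in place of 0.45.

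The PAD4 signal was too low for the filter of the main test, which left out the 40% of probe sets with the lowest mean log2 signal over all 4 arrays and so kept geometric means of 97.4 and above. PAD4 had a geometric mean of 64.7, and PR1 passed narrowly at 100.8. In a fit without that filter, limma gave PAD4 a log2 difference of 0.45 with an SE of 0.56 and a 95% interval of -0.94 to 1.83 (adjusted p = 1). On the linear scale that interval runs from 0.522-fold to 3.56-fold.

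PR1 is the most widely used marker of salicylic acid signalling and encodes a small secreted protein. Its signal was 73.4 and 119.5 in antisense leaves and 112.7 and 104.6 in wild-type leaves. Antisense 2 was the highest of the 4 arrays and antisense 1 the lowest, with the wild-type arrays between them. The mean was 96.5 ± 32.6 in antisense leaves and 108.7 ± 5.73 in wild-type leaves (SD, n = 2 each). The log2 difference was -0.21 with a 95% interval of -1.04 to 0.61, that is 0.487-fold to 1.53-fold. Leaving out antisense 1 turned its sign, to 0.14.

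PR2 encodes a beta-1,3-glucanase, an enzyme that cuts the glucan of fungal cell walls. It read 238.2 and 169.3 in antisense leaves, against 104.1 and 195.0 in wild-type leaves. The genotypes overlapped, since wild type 2 lay above antisense 2. Means were 203.8 ± 48.7 in antisense leaves and 149.6 ± 64.3 in wild-type leaves (SD, n = 2 each). The antisense line was thus 1.41-fold higher by the mean of log2 signals, a log2 difference of 0.50 with a 95% interval of -0.39 to 1.38. The antisense arrays were 1.41-fold apart and the wild-type arrays 1.87-fold, the widest wild-type gap of the 4 markers. Without wild type 1, its lowest array, the log2 difference was 0.04, and without wild type 2 it was 0.95.

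PR5 encodes a thaumatin-like protein and was the marker with the narrowest interval. Its signal was 1046.6 and 838.4 in antisense leaves and 665.2 and 835.4 in wild-type leaves. It was the only one of the 4 markers whose genotypes did not overlap, and the gap was narrow, since antisense 2 exceeded wild type 2 by a factor of 1.004. Of the 22746 probe sets 12.4% had both antisense arrays above both wild-type arrays, and 29.0% separated the genotypes in either direction. The mean was 942.5 ± 147 in antisense leaves and 750.3 ± 120 in wild-type leaves (SD, n = 2 each). The difference was 1.26-fold, or 0.33 on the log2 scale with a 95% interval of -0.20 to 0.86. Increases beyond 1.82-fold and decreases beyond 1.15-fold lie outside that interval. Its width depended on the fit. It was -0.39 to 1.05 with arrays of equal number as blocks and -0.001 to 0.66 with the arrays paired crosswise. The spread within a genotype was as large as the difference, at 1.25-fold between the antisense arrays and 1.26-fold between the wild-type arrays.

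**Figure D1:**
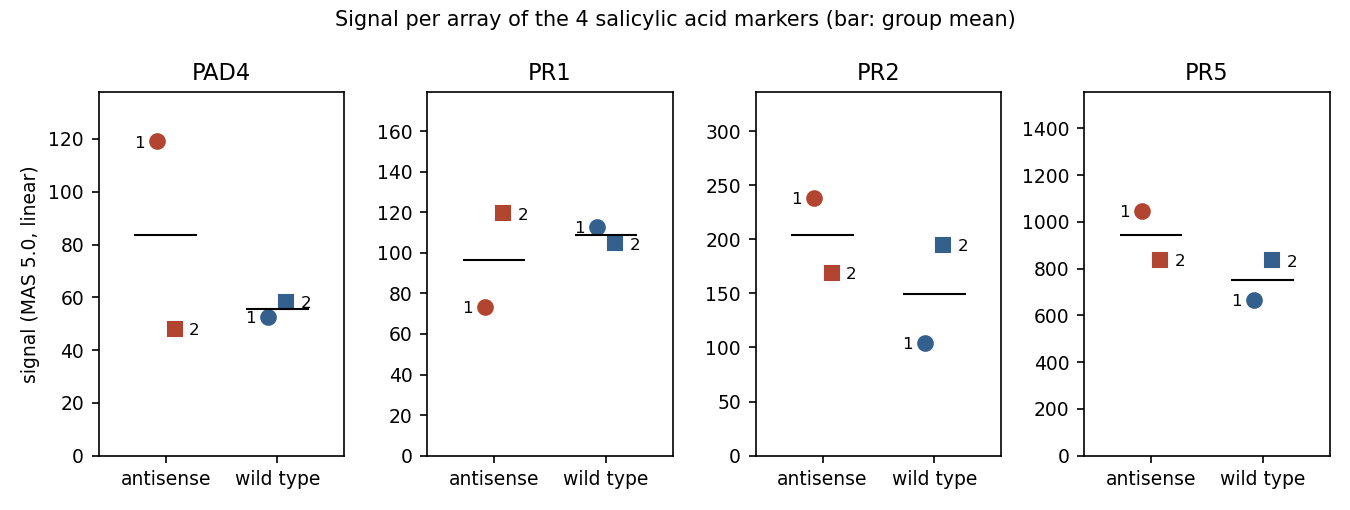
Signal (linear scale, MicroArray Suite units) of PAD4, PR1, PR2 and PR5 on each array, with antisense arrays at the left and wild-type arrays at the right of each panel, numbered 1 (circles) and 2 (squares), and group means as bars (n = 2). Antisense 1 is the highest point for PAD4, PR2 and PR5 and the lowest for PR1, and the genotypes overlap in every panel but that of PR5, where 838.4 (antisense 2) lies just above 835.4 (wild type 2).

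By limma with Benjamini-Hochberg adjustment over 13648 probe sets, 0 of the 3 markers that passed the filter were called at an adjusted p of 0.05. The same fit called 0.00% of all probe sets tested, and the adjusted p was 0.99995 for each of PR1, PR2 and PR5. The unadjusted p was 0.55 for PR1, 0.22 for PR2 and 0.18 for PR5 by limma, so that 0 of the 3 passed an unadjusted 0.05 either, which 379 probe sets (2.78%) did. An exact two-sided permutation test of 2 arrays against 2 cannot give a p below 0.333, the value it gave for PR5. It gave 0.667 for PR2 and 1 for PR1 and PAD4. The median log2 difference of the 4 markers was 0.39, beside -0.03 over all probe sets tested, with 3 of 4 above 0 against 6001 of 13648. The 4 include PAD4, which the filter kept out of the probe sets tested. Without antisense 1 the differences were -0.21 for PAD4, 0.14 for PR1, 0.25 for PR2 and 0.17 for PR5.

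**Figure D2:**
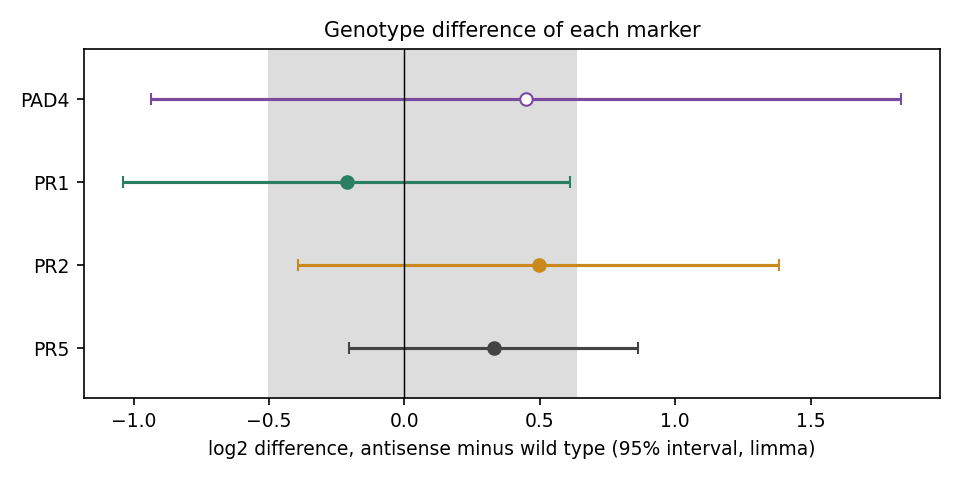
Log2 difference, antisense minus wild type, of each marker with its 95% interval from limma (n = 2 arrays a genotype), the open symbol for PAD4 marking the fit without the low-signal filter. The grey band spans the central 95% of the differences of all 13648 tested probe sets, from -0.50 to 0.63, and all 4 markers lie inside it with intervals that cross 0.

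The 4 arrays can be divided in other ways than by genotype, and 3 of the 4 markers followed one of these. A probe set with 4 different values separates exactly 1 of the 3 divisions of 2 arrays against 2. That is the division with its largest log2 difference. PAD4, PR1 and PR2 each separated antisense 1 and wild type 2 from antisense 2 and wild type 1. PAD4 and PR2 were higher in antisense 1 and wild type 2, at 119.1 and 58.4 against 47.9 and 52.5 for PAD4, and at 238.2 and 195.0 against 169.3 and 104.1 for PR2. PR1 was lower there, at 73.4 and 104.6 against 119.5 and 112.7. The log2 differences of this division were 0.73 for PAD4, 0.70 for PR2 and -0.41 for PR1. That each was larger in size than that of the genotypes follows from the separation itself. PR5 missed this division by the same narrow gap that let it separate the genotypes, with a log2 difference of 0.32. Of all 22746 probe sets, 43.3% separated the arrays in this way, so a count of 3 in 4 sets the markers little apart from the array as a whole.

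Each marker separated another division, so none could separate the arrays numbered 1 from those numbered 2. That last division was made by 27.2% of all probe sets. Its log2 differences (number 2 minus number 1) were -0.58 for PAD4, 0.30 for PR1, 0.21 for PR2 and 0.00 for PR5. The crossed division coincides with pool size, since antisense 1 and wild type 2 were pools of 9 plants while antisense 2 held 8 and wild type 1 held 7. Pool size was not alone in this. The percent of probe sets called present was 57.3 and 56.2 on antisense 1 and wild type 2. It was 55.9 and 55.5 on antisense 2 and wild type 1. The median signal of the arrays was likewise 176.95 and 173.95 against 165.7 and 170. Whether any of these plays a part was not tested.

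The markers did not vary as 1 block over the arrays. PR2 and PR5 had the most similar profiles of the 6 pairs of markers, with a root mean square distance of 0.23 log2 units after each gene's mean was subtracted. They shared their order at both ends, with antisense 1 highest and wild type 1 lowest. PAD4 lay 0.36 from PR5 and 0.39 from PR2, and was above its own mean on antisense 1 only. PR1 ran opposite to the other 3 on antisense 1, 0.46 log2 units below its mean where PAD4 was 0.88, PR2 0.49 and PR5 0.32 above theirs. Its distance was 0.79 from PAD4, 0.66 from PR2 and 0.48 from PR5. The number of other probe sets near a marker's profile depended on the measure. Among the 13645 other probe sets tested, 313 lay within 0.1 log2 units of the PR5 profile and 213 of the PR1 profile, against 23 for PR2 and 9 for PAD4. By the same order of the 4 arrays the ranking was the reverse. That order was shared by 553 (4.05%) for PR5, 868 (6.36%) for PR1, 1064 (7.80%) for PR2 and 1227 (8.99%) for PAD4. These probe sets are not named, because no table used here pairs them with genes.

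**Figure D3:**
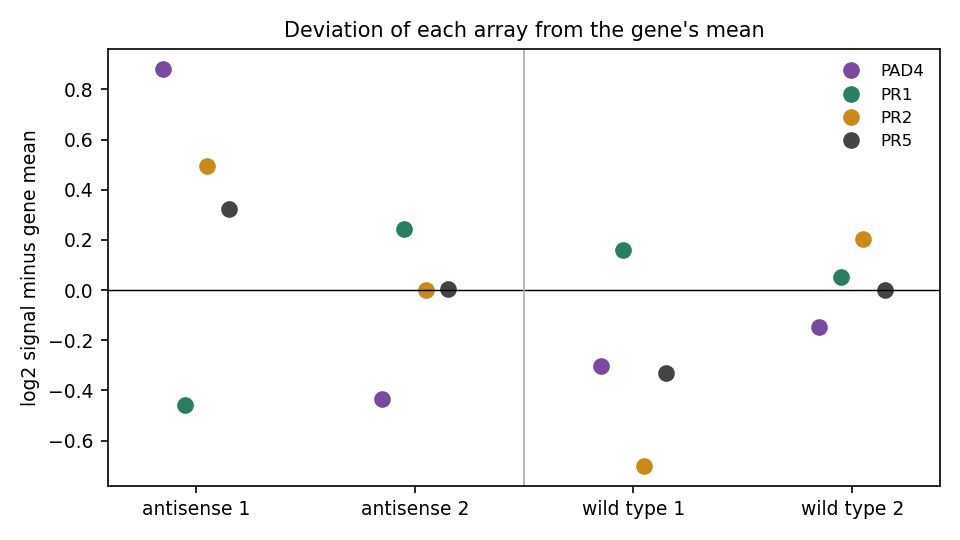
Log2 signal of each marker minus its own mean over the 4 arrays, by array, with the antisense arrays at the left. Antisense 1 is at 0.88, 0.49 and 0.32 for PAD4, PR2 and PR5 and at -0.46 for PR1, while the lowest PR2 and PR5 values are on wild type 1.

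Antisense 1 was the highest or lowest array for 4 of 4 markers, and for 53.4% of all 22746 probe sets. Of any 4 different values 2 are at an end, so that share is little above the share of an array picked at random. The shares of the other arrays are not given here. In the deposited quality sheet antisense 1 had the highest percent of probe sets called present (57.3, against 55.9 for antisense 2 and 55.5 and 56.2 for wild type 1 and 2). Its background was the lowest at 47.93, against 53.16 for antisense 2 and 48.58 and 51.81 for the wild type. Its 3' to 5' ratio for GAPDH, a measure of RNA breakdown, was the highest at 1.72, against 1.57 for antisense 2 and 1.66 and 1.47 for the wild type. Its noise was the lowest at 1.82, against 1.94 for antisense 2 and 1.84 and 1.91 for the wild type. Its scale factor, 4.34, was not at an end, against 4.18 for antisense 2 and 4.54 and 4.07 for the wild type. Antisense 2 was itself at the other end for background and noise. These values did not set antisense 1 alone apart, since 4 of the measures separated the arrays numbered 1 from those numbered 2. Background and noise were lower on both arrays numbered 1, and scale factor and GAPDH ratio were higher. Wild type 1 was thus the array nearest to antisense 1 in background, noise and GAPDH ratio. The part of these values in the marker signals was not tested. Detection calls of single probe sets were not used here, so whether PAD4 and PR1 were detected on each array was not tested.

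**Figure D4:**
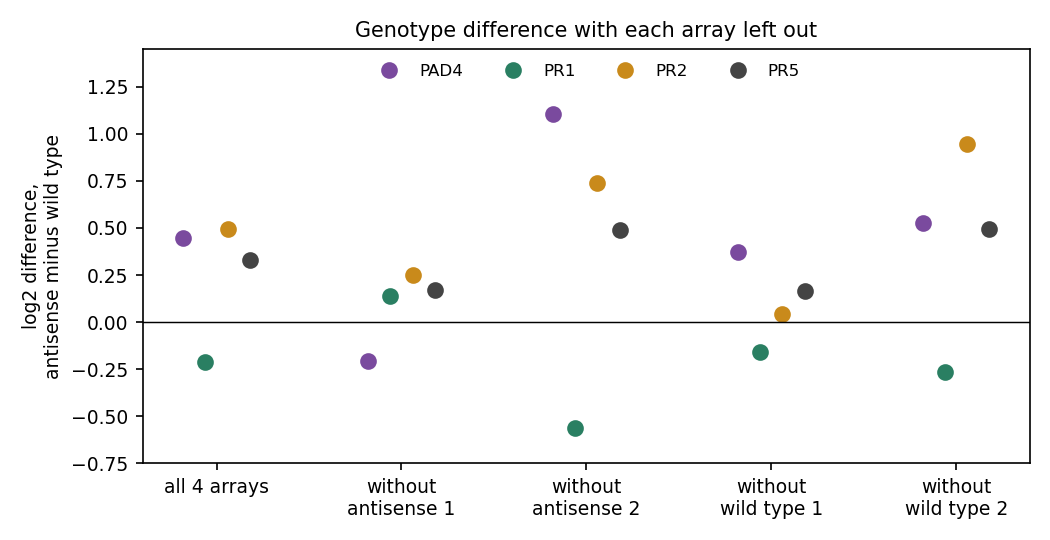
Log2 difference, antisense minus wild type, of each marker with all 4 arrays and with each array left out in turn (points, no error shown). PAD4 spans -0.21 to 1.10 and PR1 -0.56 to 0.14, both crossing 0, while PR2 spans 0.04 to 0.95 and PR5 0.17 to 0.49.

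The wider pathway and the tissue check are not analysed here. Lists of 53 genes had been drawn up by locus, covering salicylic acid synthesis, regulators, perception, WRKY factors and turnover, other defence markers, AOX1a, and leaf, root and flower markers. All 53 loci are in the RefSeq table, but 0 could be tied to a probe set. The labels could for that reason not be checked against the targeted AOX1a transcript or against leaf markers.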

How the data were processed

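Each array read RNA of 7 to 9 plants, and signals came from MicroArray Suite 5.0, per the labels' descriptions. The values are linear signal intensities, 1 for each probe set on each array, as the authors deposited them. They had been scaled by array, since the 2% trimmed mean was 500.05 on all 4. Global scaling hides any shift of all transcripts together. Per the file headers, the deposited quality sheet gives other values per array (noise, scale factor, background, percent present and a GAPDH ratio). A further ratio in that sheet, headed Actin, was not used here. Probe sets were paired with the 4 genes by the list that defines them, and all 4 loci carry these names in the RefSeq table.

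Values were log2-transformed. The 64 control probe sets and the 40% with the lowest mean log2 signal were left out, and 13648 were tested with limma 3.58.1 in R 4.3.3 (lmFit, eBayes with trend, Benjamini-Hochberg, threshold 0.05). The 2 residual and 4.25 prior degrees of freedom limit the precision, as does the number of arrays. The limma p-values rest on the spread between 2 pools a genotype, combined with that of other probe sets of similar signal. The fit was tested on simulated data with noise independent between arrays and probe sets, a simpler setting than that of the real arrays. The rule for the members uses no measured value, but members, gene lists and tests were chosen with earlier results of these data known. Genes named are the 4 markers, with the targeted gene and lists where a table pairs them with probe sets. No coordinates or sequences are given.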

Additional observations from a re-analysis of the deposited data

How the results depend on the processing

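None of the 4 markers was called under any of 15 alternatives that tested it (15 for PR5, 14 for PR2, 11 for PR1 and 1 for PAD4), with adjusted p by limma of 0.74 or above. With all 4 arrays, the log2 differences kept their sign under quantile normalization, median scaling and the log offset (8.1, the 10th percentile). They stayed between 0.41 and 0.46 for PAD4 and between -0.21 and -0.17 for PR1. The ranges were 0.47 to 0.50 for PR2 and 0.32 to 0.34 for PR5. The alternatives of filter, pairing, eBayes setting, threshold and probe sets left out cannot change these differences, so they do not test them. PR1 fell below the low filter without wild type 1, without antisense 2, without the 1061 _s_at and _x_at probe sets and at a 60% filter. Leaving out 1 array gave PAD4 -0.21 to 1.10, PR1 -0.56 to 0.14, PR2 0.04 to 0.95 and PR5 0.17 to 0.49. Leaving out antisense 1 reversed the sign of PR1, to 0.14, and of PAD4, to -0.21. In these fits a single array left in a genotype takes its spread from the rest. Equal array numbers were not taken as pairs: their deviations correlated at -0.42. The replicate block called 0 probe sets, where the fit without it called 0. Pairing the arrays crosswise called 44, none of them a marker. Elsewhere 1 probe set was called under quantile normalization, median scaling, an adjusted p of 0.1 and without _s_at and _x_at probe sets, 2 under the offset, and 1 to 12 with 1 array left out. The cause was not tested. No alternative exists for the gene lists, which were not analysed. Low signal limits PAD4 and PR1.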
